A study of Homo sapiens with 6 samples.

Results

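LMO2 is a small adaptor protein made of LIM domains, and the genes described here are LMO2, the 3 other LIM-only genes (LMO1, LMO3 and LMO4) and 6 genes whose proteins meet LMO2 or its relatives in a shared DNA-binding complex (LDB1, LDB2, TAL1, LYL1, GATA2 and TCF3). All probe sets that the array annotation assigns to these genes were taken, which gave 24 probe sets for the 10 genes, out of 45033 probe sets for 23595 genes on the array. The genes were chosen by a measured value, the LMO2 response to Wnt3a in these same arrays, which gave LMO2 the smallest Wnt3a p-value in an earlier pass over the data. Its values in every comparison below are therefore a description with no test, and tests are given only for the other 9 genes.

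LIM-only proteins bind no DNA themselves. LMO2 bridges a basic helix-loop-helix pair (TAL1 or LYL1 with an E protein such as those encoded by TCF3) and a GATA factor, and LDB1 docks on its LIM domains and dimerises, which can bring distant sites together. The complex is best known from blood progenitors, endothelium and, when LMO2 or TAL1 is switched on in the wrong cell, T-cell leukaemia. LMO4 is expressed more broadly, in epithelial and neural tissue, and competes with LIM-homeodomain factors for LDB1.

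The cells were HEK293, an established human line from embryonic kidney, and their RNA was hybridised to 6 NimbleGen arrays (a single dye, Cy3), 2 for each of 3 groups. Transfection with shRNA, either a control or one that targets SET8, lasted about 40 hours, and conditioned medium, either control or with Wnt3a, was then given for 7 hours. SET8 (KMT5A, listed as SETD8) is the enzyme that adds a single methyl group to lysine 20 of histone H4, and Wnt3a is a secreted ligand that stabilises beta-catenin. Of the groups, 2 carried control shRNA, and differed in the medium (control or Wnt3a), and the remaining group combined SET8 shRNA and Wnt3a medium. The combination of SET8 shRNA and control medium was not analysed here, so whether the shRNA altered the response to Wnt3a or the starting level cannot be told apart. The labels do not say whether arrays of a group came from separate cultures, so the spread behind each p-value may be technical. The 3 comparisons share arrays, and each comparison is given with its own values.

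The labels were checked on genes outside the group. KMT5A was lower with SET8 shRNA than with control shRNA in Wnt3a medium by 1.56 on the log2 scale (SE 0.34, a 2.94-fold difference, limma adjusted p = 0.236) on its brighter probe set and by 1.11 (SE 0.28) on the other, with no overlap between groups. The Wnt target AXIN2 was higher in Wnt3a medium by 1.56 (SE 0.39) and 1.99 (SE 0.44) on its 2 probe sets, with adjusted p = 1 for both. Replicate arrays correlated at 0.972 to 0.985 over all probe sets. A set of 1994 random-sequence probes, which match no gene, gave the background of each array, at log2 4.66 to 4.84, and 8.52% to 11.05% of probe sets lay at or below it. Levels are log2 of the authors' intensity throughout, and probes differ in brightness, so a level is compared only with the same probe set on other arrays.

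Of the 24 member probe sets, 20 were above the random probes on all 6 arrays and 4 were not. A probe set was tested where it exceeded its array's median on at least 2 arrays, which 17 of the 24 did, for 6 of the genes (LMO1, LMO2, LMO4, LDB1, GATA2 and TCF3). LMO2 passed on the 4 arrays given Wnt3a medium and lay below the median on both control medium arrays. LMO3, LDB2, TAL1 and LYL1 had no probe set bright enough, and their values are given without a place among the tested.

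Promoters are shown because beta-catenin acts through TCF/LEF factors, whose short site can be looked for, and because the genes that tracked LMO2 most closely include known Wnt targets. RefSeq promoter windows (build GRCh38.p14, from 250 bases before a transcript start to 50 after) were held for 8 of the 10 genes, all but LMO2 and LDB2, in 15 windows. The letters of 4 strings stood for the TCF/LEF site (CTTTGAA or CTTTGAT or CTTTGTA or CTTTGTT), searched on both strands. They occurred in 5 windows of 3 of the genes: in the LMO1 window, in 3 LMO3 windows and in 1 of the 2 LMO4 windows. The same strings occurred in 13.8% of 35116 RefSeq windows of this length. A pair of the LMO3 windows overlap and share their match. Printed below are the LMO1 and LMO4 windows with a match, for relatives of LMO2 in which no difference passed the test, and those of DKK1 and SP5, among the genes whose arrays were most like LMO2. Of the 8 genes most like LMO2, 4 had windows in the table, and the strings occurred in 3 of their 5 windows, those of MAOB, DKK1 and SP5, and in neither window of DACT3. Capitals mark each TCF/LEF string, read 5′ to 3′ on the gene's strand, and the windows lie at chr11:8268738-8269037 (minus strand), chr1:87328630-87328929 (plus), chr10:52314031-52314330 (plus) and chr2:170715087-170715386 (plus).
LMO1: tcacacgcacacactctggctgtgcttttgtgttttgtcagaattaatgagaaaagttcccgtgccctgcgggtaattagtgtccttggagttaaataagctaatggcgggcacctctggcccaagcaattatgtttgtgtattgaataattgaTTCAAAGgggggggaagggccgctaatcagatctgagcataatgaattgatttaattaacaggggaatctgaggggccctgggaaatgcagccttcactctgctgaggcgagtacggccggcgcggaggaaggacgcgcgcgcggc
LMO4: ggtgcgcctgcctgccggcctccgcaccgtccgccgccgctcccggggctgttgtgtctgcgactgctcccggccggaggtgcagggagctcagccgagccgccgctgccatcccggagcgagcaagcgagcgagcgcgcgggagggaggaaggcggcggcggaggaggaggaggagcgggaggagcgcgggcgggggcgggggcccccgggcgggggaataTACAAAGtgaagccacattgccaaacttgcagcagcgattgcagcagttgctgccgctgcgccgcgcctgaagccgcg
DKK1: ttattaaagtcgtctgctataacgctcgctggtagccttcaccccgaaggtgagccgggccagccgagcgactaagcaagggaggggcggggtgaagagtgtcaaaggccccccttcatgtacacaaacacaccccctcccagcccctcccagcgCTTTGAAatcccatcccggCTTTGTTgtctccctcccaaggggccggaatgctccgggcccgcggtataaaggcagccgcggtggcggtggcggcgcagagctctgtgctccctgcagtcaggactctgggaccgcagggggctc
SP5: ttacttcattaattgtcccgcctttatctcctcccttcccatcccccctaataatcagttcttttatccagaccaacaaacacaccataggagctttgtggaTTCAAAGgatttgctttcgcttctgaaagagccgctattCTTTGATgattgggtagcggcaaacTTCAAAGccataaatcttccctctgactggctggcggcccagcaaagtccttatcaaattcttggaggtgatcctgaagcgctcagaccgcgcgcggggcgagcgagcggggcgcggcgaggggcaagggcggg

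Relative to the transcript start, the LMO1 match began at base -96 and the LMO4 match at base -28. DKK1, a secreted Wnt inhibitor, had 2 matches and SP5, a zinc-finger factor, had 3. Over the 15 member windows, the E-box CANNTG, the letters read by helix-loop-helix pairs, occurred in 7 windows of 4 members against 68.7% of all windows. The GATA string GATAA occurred in 2 windows, 1 each of TAL1 and LYL1, against 22.7% of all windows. GATAA and CTTTGAT can share bases, and none of the 15 windows held both. A match is a description of letters, and binding was not measured here.

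LMO2 was far brighter after Wnt3a and lay between the other groups when SET8 shRNA was present. Its main probe set, NM_005574 (hg18 chromosome 11, 33836697 to 33870412, the span of the LMO2 transcript), read 6.86 and 6.84 in control medium, 9.71 and 9.70 in Wnt3a medium, and 8.98 and 8.89 with SET8 shRNA and Wnt3a medium. The 3 groups did not overlap, and arrays of a group differed by far less than the groups did. The level with Wnt3a was higher by 2.85 (SE 0.22), a 7.21-fold difference. With SET8 shRNA it was 0.77 lower than with control shRNA in the same medium, a 1.70-fold difference (log2 difference -0.77, SE 0.22). It stayed 2.08 above control medium (SE 0.22), a 4.23-fold difference. In RNA from whole cultures, fewer cells making LMO2 and less LMO2 RNA per cell cannot be told apart.

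The second LMO2 probe set, BC073973, covers a shorter span of the same locus (33836698 to 33847658) and was dim. It read 4.35 and 4.23 in control medium, 5.23 and 6.05 in Wnt3a medium, and 5.55 and 5.13 with SET8 shRNA. Both control medium arrays were at or below the random probes, so the difference there is a bound: at least 1.80-fold higher with Wnt3a and at least 1.46-fold higher with SET8 shRNA and Wnt3a. The Wnt3a and SET8 shRNA arrays overlapped on this probe set, with a difference of -0.30 (SE 0.35), so the lower level with SET8 shRNA rests on the main probe set.

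**Figure D1:**
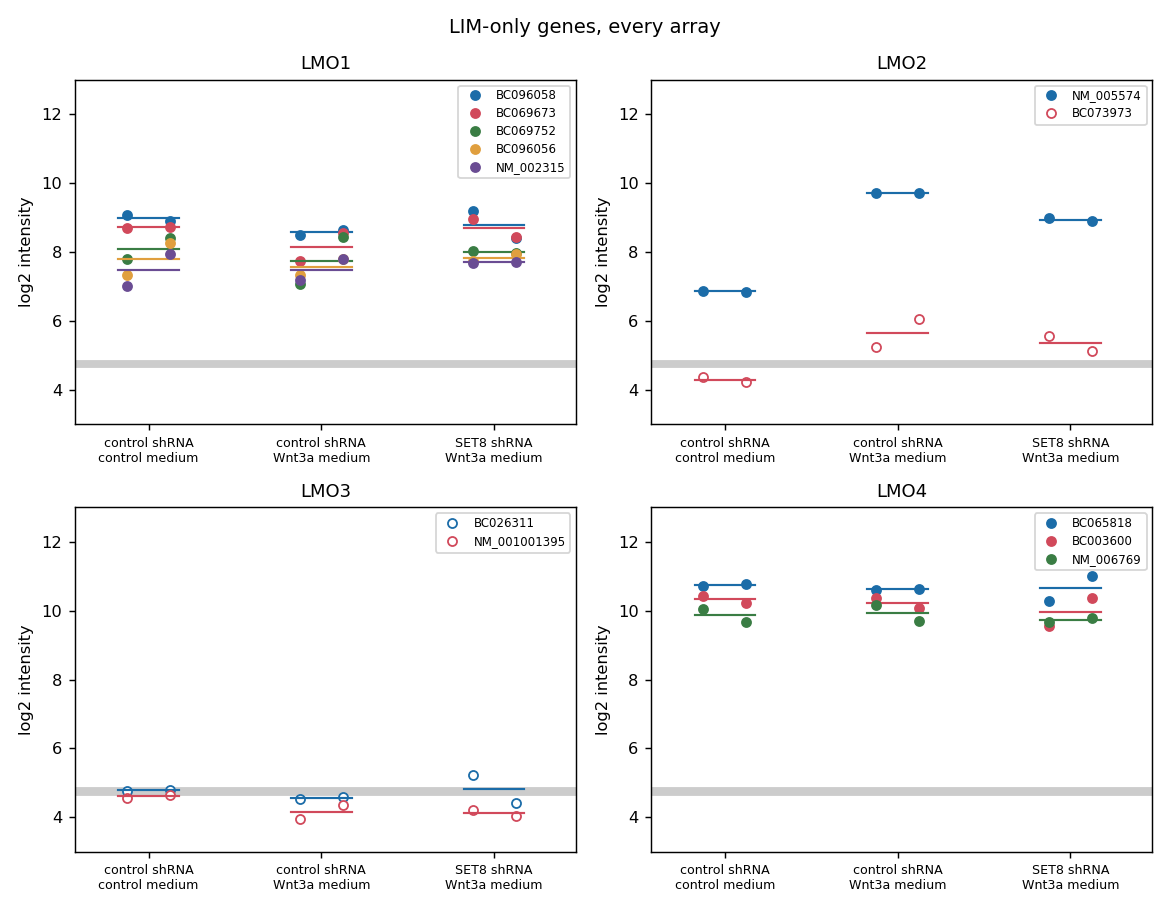
Log2 intensity (vertical axis) of every probe set of LMO1, LMO2, LMO3 and LMO4 on each of the 6 arrays, by group; points are arrays, short lines are group means, filled points are probe sets that were tested and the grey band is the range of the random probes (4.66 to 4.84). LMO2 moves from 6.84 to 9.71 on its main probe set, while no LMO1 or LMO4 probe set differs between groups by more than 0.58 and LMO3 lies around the grey band.

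No difference of the other LIM-only genes passed the test. LMO1, a relative also known from T-cell leukaemia and neuroblastoma, was measured by 5 probe sets on hg18 chromosome 11 (8202432 to 8241982 for NM_002315), all tested. The brightest, BC096058, read 9.06 and 8.90 in control medium, 8.49 and 8.63 in Wnt3a medium, and 9.18 and 8.40 with SET8 shRNA. BC069673 read 8.70 and 8.72, then 7.73 and 8.54, then 8.96 and 8.42. On both, the Wnt3a arrays lay below the control medium arrays, and the SET8 shRNA arrays overlapped those of Wnt3a.

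Over the 5 LMO1 probe sets the Wnt3a difference ran from -0.58 (SE 0.33) to 0.01 (SE 0.36), with limma adjusted p = 1 for each. The SET8 shRNA difference in Wnt3a medium ran from 0.22 to 0.56, and the smallest adjusted p was 0.851. The remaining 3 probe sets (BC069752, BC096056 and NM_002315) varied more between the control medium arrays, and BC069752 also ran from 7.05 to 8.44 within Wnt3a medium. At BC096058 the 95% interval of the SET8 shRNA difference was -0.49 to 0.93, and at BC069752 it was -0.81 to 1.30.

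LMO4, which binds LDB1 and the DEAF1 and RBBP8 (CtIP) proteins, was bright on 3 probe sets (hg18 chromosome 1, 87566738 to 87583851 for NM_006769). BC065818 read 10.71 and 10.79 in control medium, 10.62 and 10.63 in Wnt3a medium, and 10.28 and 11.01 with SET8 shRNA. Its Wnt3a difference was -0.13 (SE 0.29, 95% interval -0.81 to 0.55), and the control and Wnt3a arrays did not overlap although they lay close. BC003600 and NM_006769 differed by -0.09 and 0.07 with Wnt3a, with overlapping arrays. With SET8 shRNA the 3 probe sets differed from control shRNA by -0.27 to 0.02, all with overlap and adjusted p of at least 0.959.

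LMO3, a LIM-only gene of the nervous system, was at background. NM_001001395 (hg18 chromosome 12, 16592573 to 16652291) was at or below the random probes on all 6 arrays, between 3.96 and 4.65. BC026311 read 4.77 and 4.80 in control medium, 4.52 and 4.59 in Wnt3a medium, and 5.23 and 4.42 with SET8 shRNA, and exceeded the random probes on 2 of the 6. At this signal a difference for LMO3 was not detectable.

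Among the bridging proteins, LDB1 and LDB2 differed in how well they were measured. LDB1, the widely expressed dimerising cofactor, was bright on its single probe set NM_003893 (hg18 chromosome 10, 103857306 to 103864692). It read 12.70 and 12.62 in control medium, 12.56 and 12.19 in Wnt3a medium, and 12.38 and 12.37 with SET8 shRNA. The control medium arrays lay above the other 4, with differences of -0.28 (SE 0.24, adjusted p = 1) for Wnt3a and -0.28 (adjusted p = 0.791) for SET8 shRNA with Wnt3a. Between the shRNAs in Wnt3a medium LDB1 differed by 0.00 (95% interval -0.56 to 0.56).

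LDB2, its paralogue with a more restricted expression, was dim. NM_001290 (hg18 chromosome 4, 16112261 to 16509425) read 7.37 and 5.58 in control medium, 6.90 and 6.37 in Wnt3a medium, and 5.37 and 4.97 with SET8 shRNA, so both SET8 shRNA arrays lay below the other 4. The difference from control shRNA in Wnt3a medium was -1.46 (SE 0.56), with limma adjusted p = 0.939 in the fit without a filter. The control medium arrays of this probe set differed from each other by more than that. AF064493 read 5.85 and 5.35, then 5.50 and 4.60, then 4.09 and 4.97, and was at or below the random probes on 2 of the 6 arrays.

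TAL1, the helix-loop-helix factor that LMO2 joins in leukaemia, was dim on NM_003189 (hg18 chromosome 1, 47454550 to 47468030). It read 6.49 and 5.42 in control medium, 6.74 and 6.88 in Wnt3a medium, and 6.97 and 6.74 with SET8 shRNA. The control medium arrays lay below the other 4, with 1 of them more than a log2 unit under the other. The Wnt3a difference was 0.85 (SE 0.39), and the SET8 shRNA difference in Wnt3a medium was 0.05 (SE 0.39), each with adjusted p = 1 in the fit without a filter. Leaving out 1 control medium array at a time gave Wnt3a differences of 0.31 and 1.39.

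LYL1, the close relative of TAL1 (NM_005583, hg18 chromosome 19, 13070846 to 13074681), read 7.23 and 6.30 in control medium, 7.05 and 7.56 in Wnt3a medium, and 8.05 and 7.65 with SET8 shRNA. The SET8 shRNA arrays lay above all others, 1.08 above control medium (SE 0.39) with adjusted p = 0.481 in the fit without a filter. Leaving out 1 control medium array at a time gave 0.62 and 1.55. In both genes the lowest array was the second control medium array. Both were above the random probes on every array, and neither passed the test.

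TCF3, which encodes the E12 and E47 proteins that pair with TAL1 and LYL1, was bright on all 4 probe sets (hg18 chromosome 19, 1560292 to 1601277 for NM_003200). BC110580 read 12.50 and 12.47 in control medium, 12.82 and 12.60 in Wnt3a medium, and 12.83 and 13.04 with SET8 shRNA. NM_003200 read 12.37 and 12.44, then 12.55 and 12.49, then 12.84 and 12.63. On these 2 probe sets the 3 groups stood in the order control medium, Wnt3a medium, SET8 shRNA with no overlap.

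M31222 read 12.25 and 12.25, then 12.58 and 12.39, then 12.34 and 12.72, and BC110579 read 11.71 and 11.28, then 11.91 and 11.52, then 12.26 and 11.80. On all 4 probe sets the SET8 shRNA arrays lay above the control medium arrays, by 0.28 to 0.54. The probe sets cover the same gene on the same arrays and so are not independent, and the smallest adjusted p was 0.586. The Wnt3a step alone was 0.12 to 0.24 and the SET8 shRNA step 0.04 to 0.31, each near or below its standard error of 0.22 to 0.29.

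GATA2, the zinc-finger factor of blood progenitors that is also made in embryonic kidney and neural tissue, was bright on 3 probe sets that did not move together (hg18 chromosome 3, 129680959 to 129694718 for NM_032638). NM_032638 read 11.68 and 12.21 in control medium, 11.65 and 12.71 in Wnt3a medium, and 12.14 and 12.25 with SET8 shRNA, with overlap throughout. BC015577 read 11.12 and 11.27, then 11.23 and 11.00, then 10.65 and 10.72, so the SET8 shRNA arrays lay below the other 4.

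At BC015577 SET8 shRNA and control shRNA differed in Wnt3a medium by -0.43 (SE 0.23, limma adjusted p = 0.805), and against control medium it was -0.51 (adjusted p = 0.503). The third probe set, BC002557, read 10.70 and 10.64, then 11.06 and 10.51, then 10.36 and 10.67. Its SET8 shRNA difference was -0.27 and that of NM_032638 0.02 (SE 0.38, 95% interval -0.87 to 0.90), so the lower level at BC015577 is not shared by the brightest probe set.

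**Figure D2:**
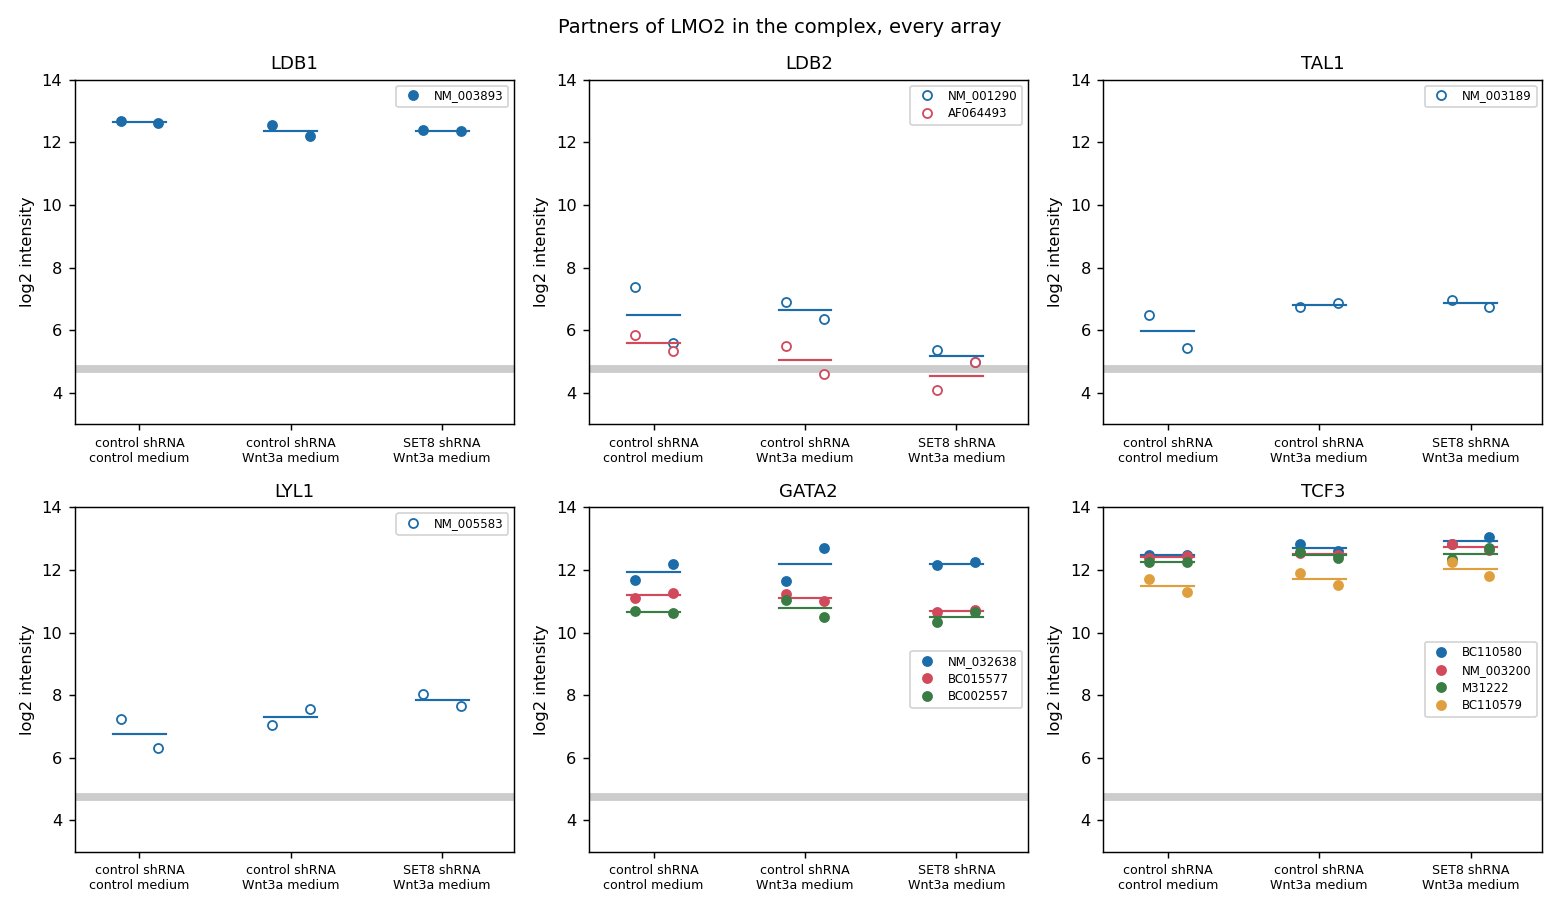
Log2 intensity (vertical axis) of every probe set of LDB1, LDB2, TAL1, LYL1, GATA2 and TCF3 on each of the 6 arrays, by group; points are arrays, short lines group means, open points probe sets too dim to be tested, and the grey band the range of the random probes. The 4 TCF3 probe sets are a little higher with SET8 shRNA than in control medium, by 0.28 to 0.54, and TAL1 and LYL1 each have 1 low array in control medium.

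Over the tested probe sets, none of the 16 of LMO1, LMO4, LDB1, GATA2 and TCF3 passed a limma adjusted p of 0.05 in any of the 3 comparisons, and 0 of 16 had an unadjusted p under 0.05. With Wnt3a, 0 of all 23808 tested probe sets passed the adjusted threshold (0%) and 2.14% had an unadjusted p under 0.05. Between the shRNAs in Wnt3a medium 0 passed (0%) and 7.16% had an unadjusted p under 0.05. For SET8 shRNA with Wnt3a against control medium 12 passed (0.0504%) and 10.6% had an unadjusted p under 0.05. The smallest adjusted p of these members was 1, 0.805 and 0.503 in the 3 comparisons.

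Groups of 2 arrays can also be compared by whether they overlap, over all 24 member probe sets including LMO2. With Wnt3a, 6 were higher without overlap (25%, against 14.8% of all probe sets) and 6 lower (25%, against 11.9%). The 6 higher were both LMO2 probe sets, TAL1 and 3 of TCF3, and the 6 lower came from LMO1, LMO3, LMO4 and LDB1. Of those 6, 2 are the LMO3 probe sets at background, where a difference was not detectable. Between the shRNAs in Wnt3a medium 3 were higher (12.5%, against 16.4%) and 3 lower (12.5%, against 16.7%), a share below the array as a whole. For SET8 shRNA with Wnt3a against control medium 8 were higher (33.3%, against 20.5%) and 5 lower (20.8%, against 17.7%), among them an LMO3 probe set at background. All these counts include LMO2, which chose the members. Both of its probe sets are among the higher with Wnt3a and in the combined comparison. Its main probe set is among the 3 lower between the shRNAs. Several probe sets share a gene, and all 4 of TCF3 are among the 8 higher in the combined comparison.

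The median difference over the 24 probe sets was 0.04 with Wnt3a, against 0.02 over all probe sets on the array. It was 0.03 against 0.00 between the shRNAs, and 0.01 against 0.01 for the combined comparison. Of all tested probe sets, those from the 5th to the 95th percentile differed by -0.36 to 0.49 with Wnt3a and by -0.59 to 0.63 between the shRNAs. The main LMO2 probe set was outside both ranges, which is a description only. Its Wnt3a value chose the members, and the comparison between the shRNAs uses the same Wnt3a arrays.

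**Figure D3:**
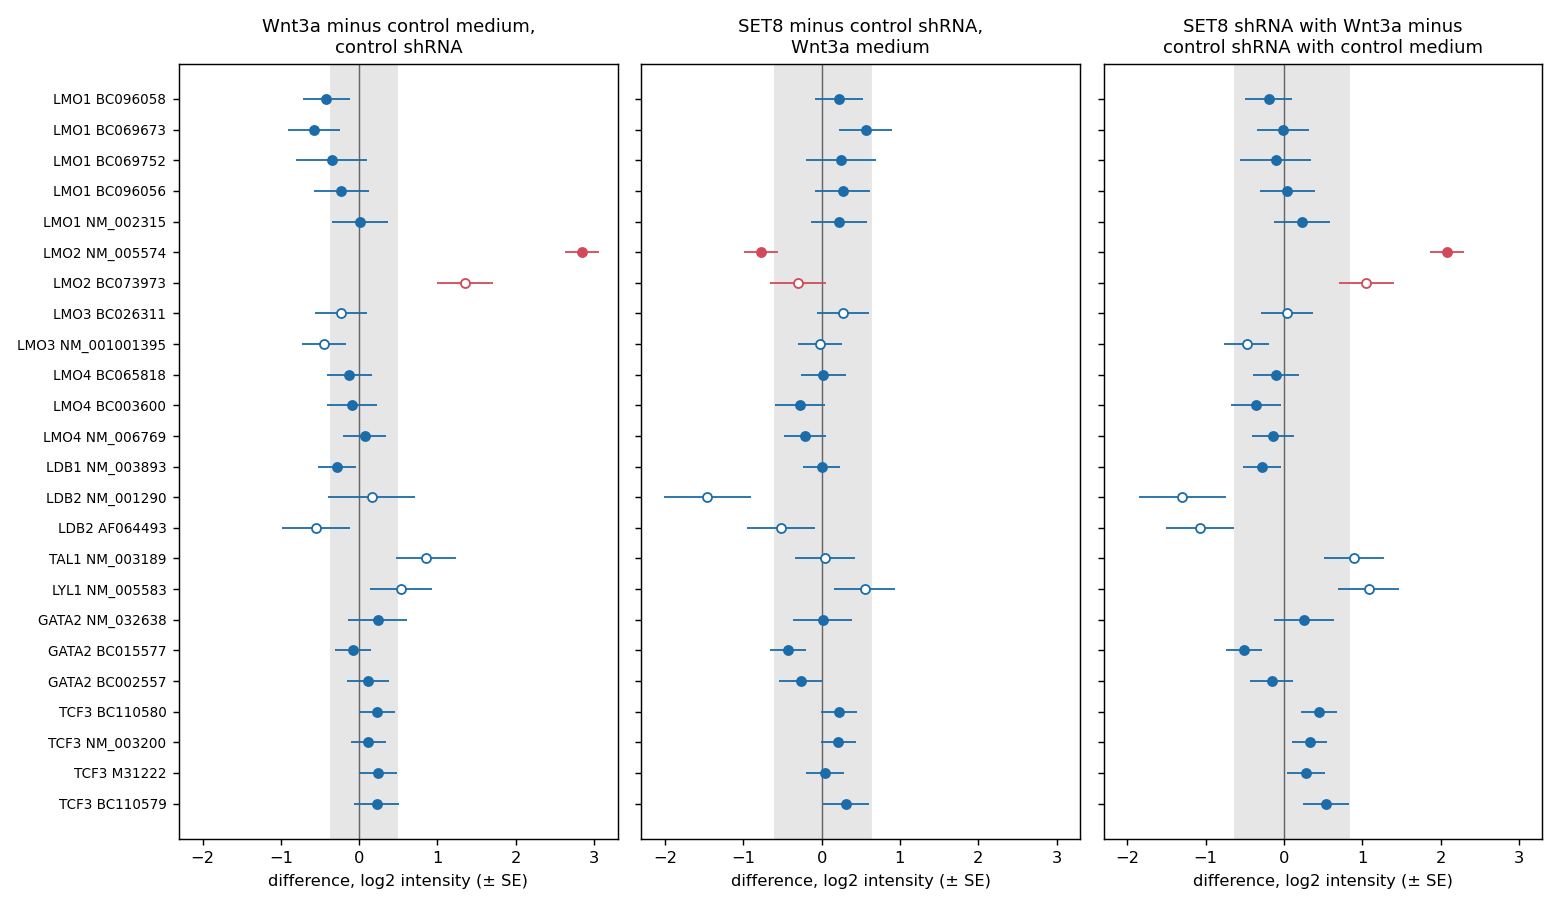
Difference in log2 intensity (horizontal axis, points with bars of 1 standard error from limma) of all 24 member probe sets in each of the 3 comparisons; red marks LMO2, open points were too dim to be tested, and the grey band spans the 5th to the 95th percentile of all tested probe sets. LMO2 stands at 2.85, -0.77 and 2.08 on its main probe set, its dim probe set has no exact difference from control medium because it was at background there, and the tested probe sets of the partners lie between -0.58 and 0.56.

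The genes whose arrays followed LMO2 most closely included known targets and regulators of Wnt signalling. Over the 6 arrays and 3475 genes with a log2 range of at least 1, the 8 highest Pearson correlations with the main LMO2 probe set were those of NKD1 (0.989), MAOB (0.984), ERBB3 (0.979), DKK1 (0.973), ETV4 (0.967), DACT3 (0.966), TSHZ1 (0.964) and SP5 (0.964). NKD1 and DACT3 encode regulators of Dishevelled, MAOB a monoamine oxidase, ERBB3 a receptor of the EGF receptor family, ETV4 an ETS factor and TSHZ1 a zinc-finger protein. These 6 points form 3 pairs from the groups, so any gene higher with Wnt3a and intermediate with SET8 shRNA correlates, and 11 genes exceeded 0.95. The order is a description, and its direction is fixed by the selection.

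NKD1 read 8.97 and 8.70 in control medium, 11.61 and 11.63 in Wnt3a medium, and 10.52 and 10.92 with SET8 shRNA. DKK1 read 7.39 and 6.66, then 9.53 and 9.64, then 9.13 and 9.32. SP5 read 6.87 and 7.45, then 9.32 and 9.97, then 9.44 and 8.99. All 3 were higher with Wnt3a, by 2.79, 2.56 and 2.48, which is close to the 2.85 of LMO2. DKK1 and SP5 passed the filter only on arrays given Wnt3a medium, which favours a higher value there. Lower levels with SET8 shRNA in Wnt3a medium were 0.90 for NKD1 (log2 difference -0.90), 0.36 for DKK1 (-0.36) and 0.43 for SP5 (-0.43), with the SP5 arrays overlapping. The limma adjusted p were 0.387, 0.923 and 0.921, and these genes were picked for following LMO2. AXIN2, the Wnt target used to check the labels, differed between the shRNAs by -0.09 (SE 0.39) and -0.19 (SE 0.44) on its 2 probe sets, with overlap on both. MAOB, the second most alike, differed by 1.74 with Wnt3a and by -0.57 between the shRNAs, and also passed the filter only on arrays given Wnt3a medium.

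**Figure D4:**
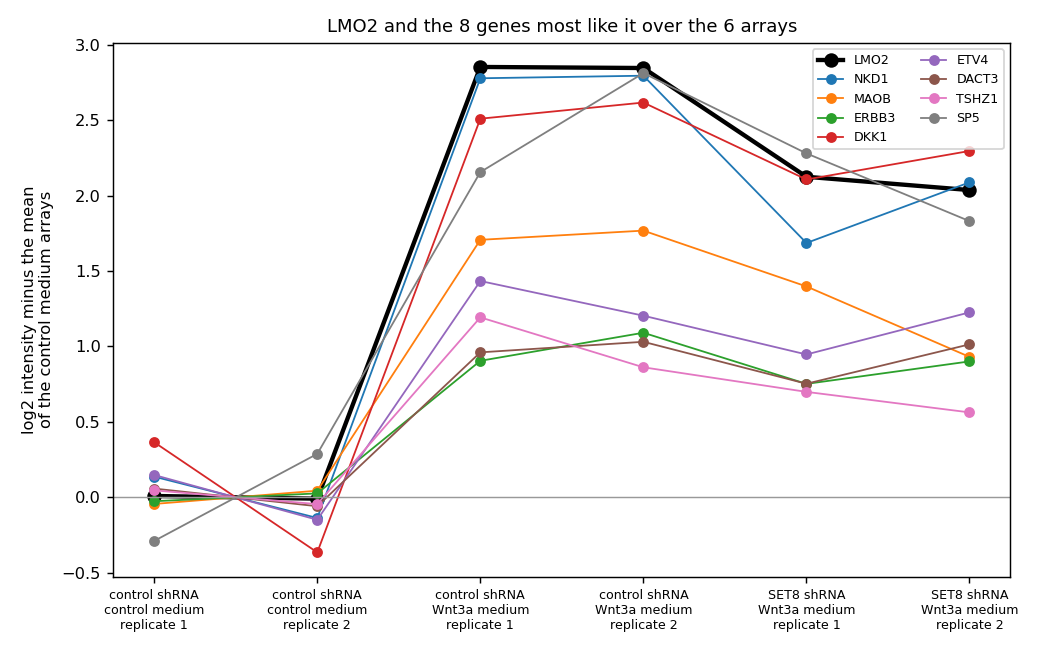
Log2 intensity minus the mean of the control medium arrays (vertical axis) for LMO2 and the 8 genes most correlated with it, on the 6 arrays (horizontal axis); lines join the arrays of a gene to help the eye and imply no order. NKD1, DKK1 and SP5 reach about the height of LMO2 with Wnt3a (2.79, 2.56 and 2.48 on average), and ETV4 reaches 1.32.

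Genes around the complex were taken from 8 lists of its cofactors, competitors, inhibitors and known targets, each gene represented by its brightest probe set. No gene of any list passed the adjusted threshold in any comparison, so each list is given by its counts and medians, beside medians over all tested genes of 0.02 with Wnt3a and 0.00 between the shRNAs. Of 4 LDB1 cofactors, 3 were tested, with medians of -0.04 and -0.27. SSBP2, a single-stranded DNA-binding protein that stabilises LDB1, differed by -0.71 between the shRNAs (SE 0.41, adjusted p = 0.840), and SSBP4 by -0.27 (SE 0.28). With Wnt3a these 2 differed by -0.06 and -0.04. SSBP2 passed the filter without any SET8 shRNA array, which favours a lower value there.

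Of 12 LIM-homeodomain factors, which compete with LMO proteins for LDB1, 8 were tested, with medians of 0.16 with Wnt3a and 0.05 between the shRNAs. Of these, 7 of 8 differed upwards with Wnt3a, beside 7027 of 13054 tested genes of the array, and LHX2, LHX6, LHX9 and LMX1B did so without overlap. Over all 12 genes, untested ones included, 6 were higher without overlap and 1 (LHX1) lower, beside 3540 and 2766 of 23595 genes. Between the shRNAs 2 of the 12 were higher and 3 lower, beside 3856 and 4086. LHX9, a factor of gonad and brain, read 9.31 and 8.68 in control medium, 10.06 and 9.76 in Wnt3a medium, and 9.78 and 9.78 with SET8 shRNA, a Wnt3a difference of 0.91 (SE 0.28, adjusted p = 1). LMX1B, of limb, kidney and midbrain, differed by 0.63 with Wnt3a on its brightest probe set (SE 0.24), but by 0.02 and -0.08 on its other 2.

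Between the shRNAs all 3 LMX1B probe sets were lower without overlap, by -0.79 (adjusted p = 0.446), -0.36 and -0.51 as differences. Of all probe sets, 16.7% were lower and 16.4% higher without overlap in this comparison. The LMX1B probe sets share a gene and are not independent. The dimmest of them (-0.51) passed the filter without any SET8 shRNA array, which favours a lower value there. LHX6, of forebrain interneurons, read 9.20 and 8.98, then 9.27 and 9.35, then 9.77 and 10.28, a SET8 shRNA difference of 0.71 (SE 0.26, adjusted p = 0.594). Its second probe set differed by 0.44 in the same direction, and both were ordered control medium, Wnt3a medium, SET8 shRNA with no overlap. The second LHX6 probe set passed the filter without any control medium array.

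The inhibitors of E proteins, the ID genes, were all 4 tested and had a median of -0.44 between the shRNAs, the most negative of these 8 lists, beside 0.00 with Wnt3a. ID1 read 11.26 and 12.03 in control medium, 11.40 and 11.69 in Wnt3a medium, and 10.74 and 10.09 with SET8 shRNA. Its difference between the shRNAs was -1.12 (SE 0.35, adjusted p = 0.465), and -1.30 (adjusted p = 0.241) on its other probe set. ID3 differed by -0.63 and -0.75 on its 2 probe sets. ID2 went the other way, by 0.65 (SE 0.23, adjusted p = 0.574) and 0.35, and ID4 differed by -0.25. For ID1, ID2 and ID3 the SET8 shRNA arrays lay outside both other groups on every probe set. Of all probe sets, 16.4% were higher and 16.7% lower without overlap between the shRNAs, and 20.5% and 17.7% against control medium. None of these differences passed the test.

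Of 5 other helix-loop-helix partners, 3 were tested, with medians of -0.01 and -0.08. TCF12, another E protein, differed by 0.09 with Wnt3a, TAL2 by -0.02 with Wnt3a and -0.16 between the shRNAs, and TCF4 by 0.10 between the shRNAs, each within its standard error. Of 7 other GATA factors and their FOG cofactors, 6 were tested, with medians of -0.10 and 0.14. GATA3 differed by -0.49 between the shRNAs (SE 0.22, adjusted p = 0.723). GATA5, of endoderm and heart, read 6.38 and 7.04, then 6.65 and 7.76, then 8.17 and 7.77, with differences of 0.50 (SE 0.41) and 0.76 (SE 0.41, adjusted p = 0.813). GATA5 passed the filter on 1 Wnt3a array of control shRNA and 1 SET8 shRNA array, without any control medium array. ZFPM1, or FOG1, differed by -0.52 with Wnt3a (SE 0.38).

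Of 11 other haematopoietic factors, 7 were tested, with medians of -0.08 and 0.01. FLI1, an ETS factor, read 10.35 and 9.23 in control medium, 10.35 and 9.06 in Wnt3a medium, and 10.75 and 11.61 with SET8 shRNA. Its difference between the shRNAs was 1.47 (SE 0.55, adjusted p = 0.605), and the first and second arrays of both control shRNA groups differed by more than a log2 unit. With a term for array number within the control shRNA arrays the adjusted p was 0.0317, and over all alternatives it ran from 0.0317 to 1. CBFB, the partner of RUNX proteins, differed by 0.40 with Wnt3a and -0.24 between the shRNAs, and CBFA2T3, a corepressor that joins the complex, by -0.51 with Wnt3a (SE 0.38).

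Of 4 other proteins that bind LMO2 or LMO4, all were tested, with medians of -0.13 and 0.19. KDM5A, a histone H3 lysine 4 demethylase, differed by -0.40 with Wnt3a (SE 0.33) and RBBP8 by 0.25 (SE 0.26). DEAF1 and ELF2 differed by 0.22 and 0.24 between the shRNAs, below their standard errors of 0.28 and 0.49.

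Of 11 genes known as bound or driven by the complex in blood and endothelium, 4 were bright enough to test, with medians of 0.33 with Wnt3a and -0.14 between the shRNAs. NFE2, an erythroid and megakaryocytic factor, read 7.49 and 7.10 in control medium, 8.12 and 8.54 in Wnt3a medium, and 8.06 and 8.0 with SET8 shRNA, a Wnt3a difference of 1.04 (SE 0.26, adjusted p = 1), and 0.63 (SE 0.23) on its other probe set. Both NFE2 probe sets passed the filter only on arrays given Wnt3a medium, which favours a higher value with Wnt3a for NFE2 and for the list median. HHEX differed by 0.39 with Wnt3a (SE 0.25). KIT, the stem cell factor receptor, differed by -0.42 between the shRNAs (SE 0.23, adjusted p = 0.813), and NFE2 by -0.30. This KIT probe set passed the filter without any SET8 shRNA array, which favours a lower value there.

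**Figure D5:**
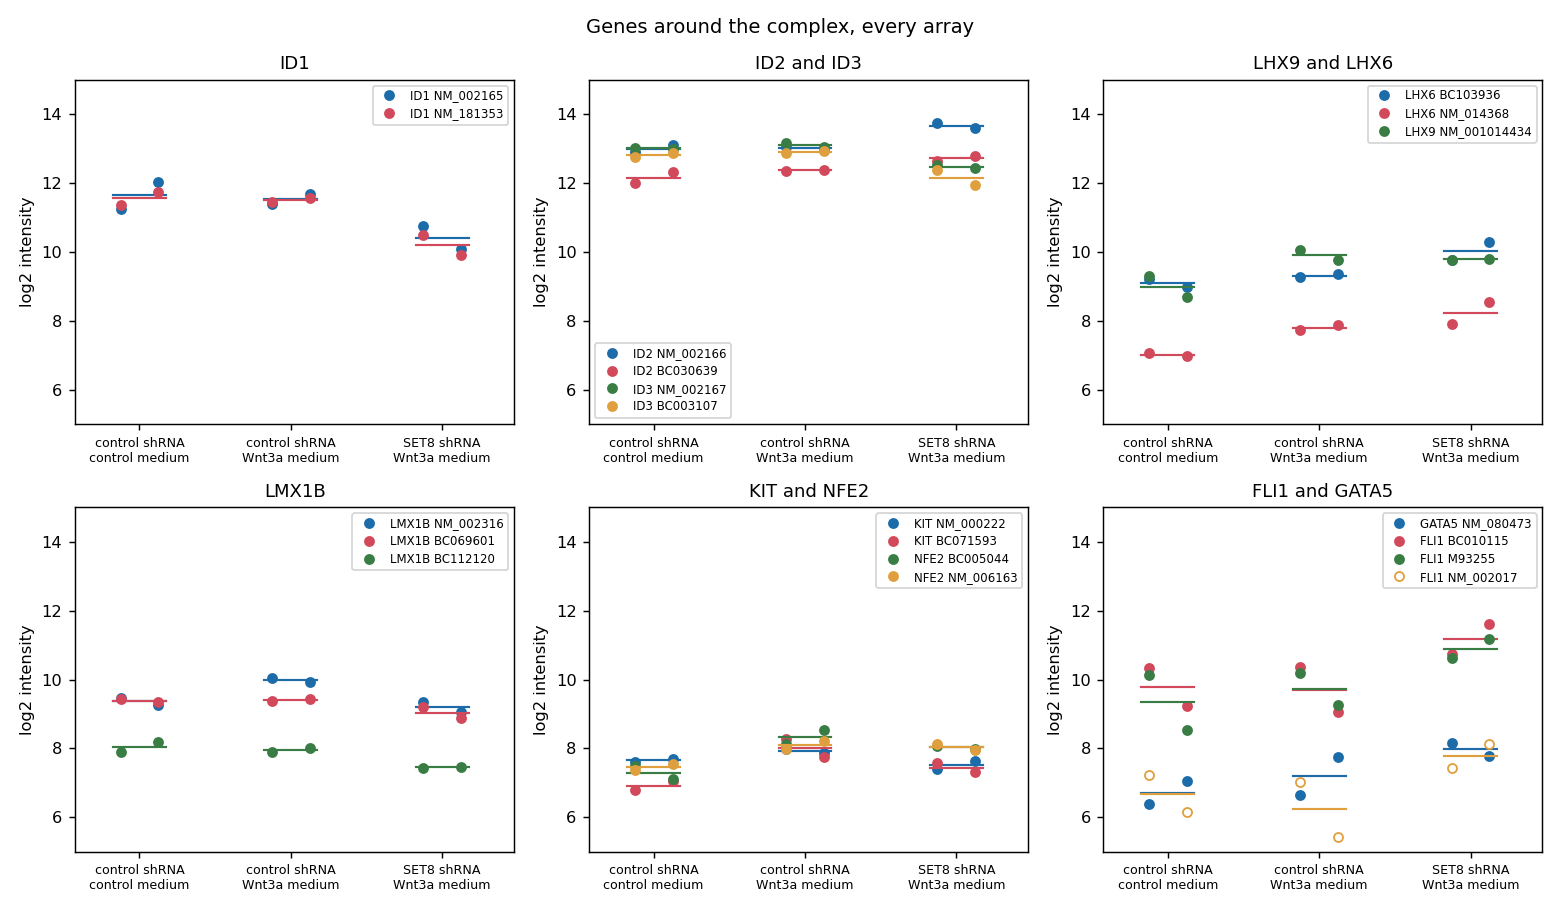
Log2 intensity (vertical axis) on each array, by group, of ID1, ID2, ID3, LHX6, LHX9, LMX1B, KIT, NFE2, FLI1 and GATA5; points are arrays, short lines group means and open points a probe set too dim to be tested. ID1 and ID3 are lower and ID2 higher with SET8 shRNA, and the 2 arrays of each control shRNA group lie apart for FLI1.

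Markers of cells where the complex is known were low. Of 7 blood markers none was bright enough to test, and their summed intensity was 587 to 590.2 in control medium, 468 to 561 in Wnt3a medium and 448 to 477 with SET8 shRNA. HBB was at or below the random probes on at least 1 array. Of 7 endothelial markers 1 was bright enough, the sums were 718 to 835, 575 to 959 and 511 to 557, and KDR, PECAM1, TIE1 and TEK reached background on at least 1 array. For SET8 shRNA with Wnt3a against control medium, 4 of the 7 were lower without overlap and 0 higher, beside 4298 and 4795 of 23595 genes. Those 4 were CDH5, TEK, TIE1 and VWF, all too dim to be tested.

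Of 8 genes typical of HEK293 all were bright enough to test, with sums of 71685 to 74118, 68804 to 72162 and 70963 to 71178. PAX2 exceeded the array median on only 2 of the 6 arrays. Fibroblast markers, 2 of 6 bright enough, summed to 5733 to 6113, 6138 to 7058 and 4528 to 4929. The sums were carried by COL1A1, whose log2 intensity averaged 12.31 in control medium and 12.59 in Wnt3a medium. Of the 6, COL1A1 was higher with Wnt3a without overlap, beside 3540 of 23595 genes. DCN, COL1A2 and COL3A1 were lower, beside 2766 of 23595 genes, with differences of -2.09 (SE 0.37), -1.58 (SE 0.42) and -0.85 (SE 0.34). The second COL1A1 and COL3A1 probe sets overlapped, with differences of 0.17 and -0.04, while the further DCN and COL1A2 probe sets were also lower without overlap. COL3A1 passed the filter only on the control medium arrays. For SET8 shRNA with Wnt3a against control medium, 5 of the 6 fibroblast markers were lower without overlap and 0 higher, beside 4298 and 4795 of 23595 genes. Between the shRNAs 2 were lower and 0 higher, beside 4086 and 3856. These counts use the brightest probe set of each gene. The part of any of these marker lists in the LMO2 values was not tested.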

How the data were processed

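Each deposited file is an array, with a linear intensity for every probe set. The authors made these intensities with RMA, per the submitters' processing notes, and its version is not given in the sources used here. Nearly every probe set holds 3 probes, and coordinates are hg18 per the file headers. Intensities were taken to log2 as deposited, with no further scaling. Array medians were 198.1 to 220.7, and the number of arrays limits the precision. Probe sets above their array's median on at least 2 of 6 arrays were tested (23808) with limma 3.58.1 in R 4.3.3 over 3 groups and all arrays (3 residual and 4.32 prior degrees of freedom), with Benjamini-Hochberg adjustment over all of them. Dimmer members were read from the same fit without the filter. An exact permutation test of 2 arrays against 2 cannot go below p = 0.333, so none is given.

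The members, the lists and the tests were chosen with earlier results of these data known. All member probe sets are named. A further blood marker is not reported here. From each other list the genes passing an adjusted p of 0.05 would be named and, with none, the 2 with the smallest unadjusted p among those tested, in the Wnt3a and in the SET8 shRNA comparison. The main probe set of a gene is its brightest on average. A group with both arrays at or below the random probes is given as a bound, with that group set to the level of the random probes. Samples and groups follow the labels, whose design text says siRNA as well as shRNA. Symbols were updated through the RefSeq table by gene ID (86.4% of probe sets matched). Alternatives covered filters, samples in the fit, spread models, replicate terms, normalisation, an offset and leaving out each array. The fit was tested on simulated data.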

Additional observations from a re-analysis of the deposited data

How the results depend on the processing

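LMO2 is given with no test here as well. Of the other members, none passed an adjusted p of 0.05 in any comparison under any of the alternatives run. The number of calls over all probe sets did move. For SET8 shRNA with Wnt3a against control medium (12) it was 0 without a filter, 52 on raising the filter to the 60th percentile, 0 with a filter at the random probes, 230 from only the 4 arrays of the comparison, 31 with an intensity trend, 2 with a robust spread, 1503 with a replicate-number term within control shRNA arrays only (the array term), 6 after quantile normalisation, 56 with an offset of 50 and 0 to 230 leaving out 1 array at a time. With Wnt3a (0) it was 2 at the 60th percentile, 2 with the trend, 14 with the array term, 2 with the offset and 0 in every fit that left out an array. Between the shRNAs (0) it was 28 from only 4 arrays, 15 with the trend, 535 with the array term and 0 to 28 leaving out an array.

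Replicate numbers were not taken as pairs: the differences between arrays 1 and 2 correlated at 0.75 between the control shRNA groups and at -0.29 between either and SET8 shRNA. With the number as a replicate block the combined comparison had 0 calls. Crossing the numbers of the SET8 shRNA arrays, an alternative chosen after seeing the data, gave 3, 182 and 792 calls for Wnt3a, for the shRNAs and combined. The array term and the crossed block call FLI1 between the shRNAs (adjusted p = 0.0317 and 0.0327).

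LMO2 kept its direction throughout. Its Wnt3a difference was 2.78 with arrays centred on their medians, 2.80 after quantile normalisation, 2.42 with the offset, 2.10 as the mean of its probe sets and 2.84 to 2.86 leaving out an array. Its difference between the shRNAs was -0.71 with the offset, -0.54 as the mean and -0.81 to -0.73 leaving out an array. The combined difference was 1.99, 2.01, 1.70 and 1.57 in the same order, and 2.04 to 2.13. The means against control medium include BC073973, at background there, and are not exact.

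Some signs turned. Median centring gave LDB1 -0.018, GATA2 -0.005 (both between the shRNAs) and LMO3 -0.05 (combined), and quantile normalisation LDB1 -0.005. The mean of probe sets gave, between the shRNAs, LMO4 -0.15, GATA2 -0.23 and TCF4 -0.11, with Wnt3a LDB2 -0.20 and SSBP2 0.13, and combined LMO3 -0.22 and GATA2 -0.14. Leaving out 1 array at a time, the Wnt3a differences ran from -0.29 to 0.77 for GATA2, -0.058 to 1.05 for GATA5, -0.48 to 0.29 for ID1, -0.82 to 0.011 for KDM5A, -0.73 to 1.05 for LDB2, -0.54 to 0.41 for SSBP2, -0.35 to 0.27 for SSBP4, -0.54 to 0.49 for TAL2, -0.031 to 0.22 for TCF12 and -1.05 to 0.011 for ZFPM1. Those between the shRNAs ran from -0.063 to 0.51 for DEAF1, -0.39 to 0.88 for ELF2, -0.51 to 0.54 for GATA2, -0.19 to 0.19 for LDB1, -0.17 to 0.61 for LMO1, -0.14 to 0.68 for LMO3, -0.34 to 0.39 for LMO4, -0.58 to 0.04 for SSBP4, -0.067 to 0.16 for TAL1, -0.67 to 0.36 for TAL2 and -0.005 to 0.21 for TCF4. Combined ones ran from -0.01 to 0.52 for GATA2, -0.59 to 0.20 for LMO1, -0.37 to 0.45 for LMO3 and -0.47 to 0.26 for LMO4. The cause was not tested. Of all differences recomputed, 1098 were unchanged within their spread, 31 moved, 47 turned sign and 2 became calls, both FLI1 between the shRNAs. Signal limits LMO3, LDB2 and the second LMO2 probe set, which lie near the random probes.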

Other observations

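A second KIT probe set, singled out after its values were seen, followed LMO2 more closely than the main one. BC071593 read 6.79 and 7.05 in control medium, 8.28 and 7.74 in Wnt3a medium, and 7.58 and 7.31 with SET8 shRNA, with differences of 1.09 (SE 0.28) for Wnt3a and -0.57 between the shRNAs, and no overlap between groups. BC071593 passed the filter only on the 2 Wnt3a arrays with control shRNA, so its higher value there is partly fixed by the filter. The main KIT probe set differed by 0.27 and -0.42, and passed the filter without any SET8 shRNA array. LHX1, a kidney and head organiser factor also chosen after its values were seen, went the opposite way on both probe sets, by -0.48 and -0.68 with Wnt3a and by 0.60 and 0.68 between the shRNAs, with no overlap in either comparison. The dimmer LHX1 probe set passed the filter without any Wnt3a array of control shRNA. None passed the test: over the 3 comparisons the smallest limma adjusted p was 0.601 for this KIT probe set (SET8 shRNA with Wnt3a against control medium) and 0.647 for LHX1 (between the shRNAs).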
